A study of Homo sapiens with 24 samples.

Results

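Toll-like receptor signalling was followed through 10 genes across all treatments: the receptors TLR1, TLR2, TLR4, TLR6, TLR7 and TLR8, the TLR4 co-receptor LY96 and the adaptors MYD88, TICAM1 and TICAM2. They were taken by name from a table of 38048 genes, without use of their values, and all 10 had a row. With GSK-LSD1, an inhibitor of the histone demethylase LSD1, 7 of the 9 genes other than LY96 rose (17.6% of all genes tested did; TLR1, TLR6, TLR7, TLR8, MYD88, TICAM1 and TICAM2) and 2 fell (15% of all genes tested; TLR2 and TLR4). LY96 was also higher, but it entered the test only through its level with GSK-LSD1, so it is described and not counted there. Within the TLR4 pathway, LY96 and TICAM2 were higher by 4.41 and 4.11 on the log2 scale, while TLR4 itself fell by 0.74. The LY96 value starts from 2 to 6 counts per DMSO library. Summed with TMED7-TICAM2, a readthrough gene that shares most of its sequence, TICAM2 rose by 2.47. PRT220, a PRMT5 inhibitor, raised 4 of the 10 (13.8% of all genes tested rose), among them TLR2 and TLR4, which GSK-LSD1 lowered. The TLR4 call with PRT220 was lost without DMSO B or without PRT220 C. Every PRT220 library was also low in RRP9, a split described below.

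Toll-like receptors are membrane proteins that bind microbial molecules through an outer or luminal domain and signal through an inner TIR domain. TLR2 pairs with TLR1 or TLR6 at the cell surface to bind bacterial lipopeptides, TLR4 binds lipopolysaccharide together with the secreted protein MD-2 (encoded by LY96), and TLR7 and TLR8 bind single-stranded RNA in endosomes. MYD88 is the adaptor of most of these receptors and leads to NF-kB, whereas TRIF (encoded by TICAM1) leads to interferon regulatory factors and reaches TLR4 through the bridging adaptor TRAM (encoded by TICAM2). Monocytes and macrophages carry most of these proteins, and LSD1 serves the GFI1 repressors in myeloid cells.

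The cells were MV4-11, an established human acute myeloid leukaemia line labelled PRMT5 +/+, in 8 groups of 3 libraries. Besides DMSO there were PRT220 at 3 nM, GSK-LSD1 at 10 nM (written LSD1 in the labels), both together, MS023 alone or together with GSK-LSD1, MC4455, and MC4491. MS023 inhibits the type I enzymes among the arginine methyltransferases. The first 4 groups were treated for 3 days, and neither dose nor time was given for the groups with MS023, MC4455 or MC4491. What kind of compound MC4455 and MC4491 are was not given either. The study asked whether expression changes accompany the synergy of PRMT5 and LSD1 inhibition. Replicates carried the letters A, B and C, with no word on whether the cultures were separate, so that a p-value here covers only the spread among these samples.

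Each library held between 3.25e+07 and 6.11e+07 estimated counts. Levels are in CPM, counts scaled to a library total of 1e6 with edgeR's TMM method, as mean ± SD with n = 3, and log2 fold changes carry their standard error (SE). Calls are of genes whose adjusted p was below 0.05, from the quasi-likelihood test of edgeR and the Benjamini-Hochberg method over all 16640 genes tested. The libraries also split by a feature the labels did not name: RRP9, a factor of ribosomal RNA processing, stood at 0.677 to 1.73 CPM in 8 libraries and at 29.1 to 36.2 CPM in the other 16. All 3 PRT220 libraries were among the 8, with DMSO C, 1 library of each combination and 2 of MS023. Of the line's own markers, FLT3 stood at 697 CPM and CD33 at 65.9 CPM with DMSO.

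All 10 genes passed the filter on low counts. LY96 reached the level the filter asks for, 0.248 CPM before scaling, in 9 of 9 libraries given GSK-LSD1 and in 1 of the 15 others. It therefore had to differ between those groups: its values there are a description, and counts below for comparisons of groups with and without GSK-LSD1 leave it out. TLR8 reached that level in 9 of 9 and 11 of 15 libraries, and the other 8 genes did so in every library.

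Coordinates refer to GRCh38. TLR2 (ENSG00000137462) lies on chromosome 4 at 153684070 to 153705702 on the plus strand, and TLR1 (ENSG00000174125, 38790677 to 38856817) and TLR6 (ENSG00000174130, 38823715 to 38856817) share the same chromosome's minus strand and the same annotated start. Their annotated exons share 57 bases, and 418 of the 31-base words of their transcripts occur in both, which is 9.06% of those of TLR1 and 6.90% of those of TLR6. TLR4 (ENSG00000136869) is on chromosome 9 at 117704175 to 117724730. On chromosome X lie TLR7 (ENSG00000196664, 12867083 to 12890380) and TLR8 (ENSG00000101916, 12906620 to 12923169), 1 after the other on the plus strand. MYD88 (ENSG00000172936) is on chromosome 3 at 38138478 to 38143022, TICAM1 (ENSG00000127666) on chromosome 19 at 4815932 to 4831704 and TICAM2 (ENSG00000243414) on chromosome 5 at 115578650 to 115602479.

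Promoter sequences were in the RefSeq table (GRCh38.p14) for 7 of the 10 genes: TLR2, TLR4, TLR6, TLR8, MYD88, TICAM1 and TICAM2. The 250 bases before the RefSeq start were searched on both strands for 5 short motifs of factors known in myeloid or Toll-like receptor signalling. These were the GFI1 core AAATCA, present in 11.6% of 35116 promoters of the same length, the PU.1 motif GAGGAAG (11.2%), the C/EBP motif TTGCNNAA (9.05%), an NF-kB motif (1.73%) and an IRF motif (3.02%). TLR8 held 4 matches of the GFI1 core, which only 4 of the 35116 promoters did (0.0114%), and 1 C/EBP match that overlaps one of them. TICAM2, which rose most of the genes with a sequence here, held no match of any of the 5. The 2 windows are shown because they contrast a gene with several matches of the GFI1 core and the gene with the largest rise, at chrX:12906370-12906619 on the plus strand and chr5:115602480-115602729 on the minus strand, with matches in capitals.
TLR8: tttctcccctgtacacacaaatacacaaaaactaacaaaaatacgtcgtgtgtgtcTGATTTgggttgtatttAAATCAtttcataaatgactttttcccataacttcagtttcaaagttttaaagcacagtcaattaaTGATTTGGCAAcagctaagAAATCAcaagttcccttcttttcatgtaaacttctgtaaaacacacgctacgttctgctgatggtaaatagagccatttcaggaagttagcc
TICAM2: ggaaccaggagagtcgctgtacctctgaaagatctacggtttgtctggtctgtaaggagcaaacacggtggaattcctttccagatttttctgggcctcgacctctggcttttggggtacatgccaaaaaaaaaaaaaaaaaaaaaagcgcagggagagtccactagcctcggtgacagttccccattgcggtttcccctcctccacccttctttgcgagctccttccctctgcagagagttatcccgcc

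In TLR4 the same search found 4 matches of the PU.1 motif, 1 on the gene's strand and 3 on the other. Printed on the gene's strand, those 3 read CTTCCTC. At least 4 matches of the motif, counting both strands, occurred in 5 of the 35116 promoters (0.0142%). The stretches of 27 bases around them are printed because TLR4 was one of the 2 genes that fell with GSK-LSD1. The window lies mostly within exons annotated in GENCODE 29, whose TLR4 start is upstream of that in RefSeq.
TLR4, chr9:117704168-117704194: agccaactagCTTCCTCttgctgtttc
TLR4, chr9:117704221-117704247: cttcttctaaCTTCCTCtcctgtgaca
TLR4, chr9:117704293-117704319: gccgctttcaCTTCCTCtcacccttta
TLR4, chr9:117704353-117704379: ggggcggctcGAGGAAGagaagacacc

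MYD88 held 1 PU.1 and 1 IRF match. The IRF match of MYD88 and the NF-kB match of TICAM1 are shown because these are the 2 rarest of the 5 motifs. Of the 250 bases of the MYD88 window 183 lie in a MYD88 exon annotated in GENCODE 29, and the stretch printed is inside that exon. The stretch of TICAM1 is on the minus strand.
MYD88, chr3:38138590-38138619: gcgcttctcgGAAAGCGAAAgccggcgggg
TICAM1, chr19:4831813-4831842: gggcgacccgGGGACTTTCCcggtgctgcg
TICAM1 also held 1 C/EBP match, TLR6 held 1 PU.1 match, and TLR2 held none. A match describes letters in these windows only, and binding was not measured.

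**Figure D1:**
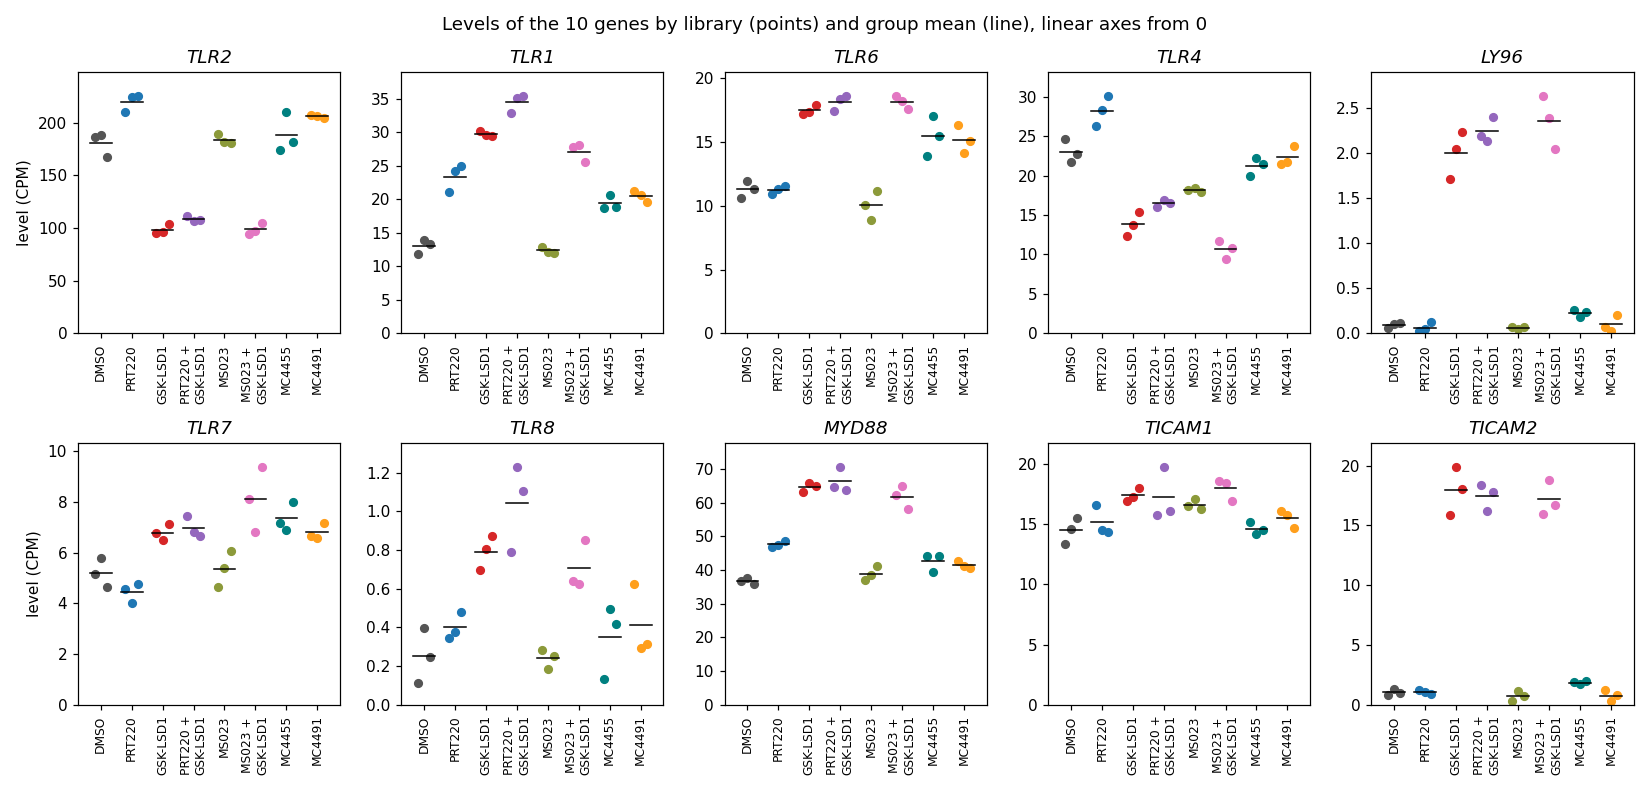
Level in CPM (vertical axis, linear from 0, own scale per gene) of the 10 genes in the 8 groups; points are libraries and lines are group means of 3. The 3 groups given GSK-LSD1 stand apart from DMSO for the 9 genes other than LY96. They lie below it for TLR2 and TLR4 and above it for the others, with TICAM2 near 17 to 18 CPM against 1.02 CPM. Of all genes tested, 46.2% were likewise apart with GSK-LSD1, 53% with PRT220 added and 51.8% with MS023 added. LY96 is also higher there, but it entered the test only through those groups.

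The share of all tested genes called with GSK-LSD1 against DMSO was 32.6%, beside 9 of the 9 genes other than LY96. It was 46.5% for PRT220 with GSK-LSD1 and 48.4% for MS023 with GSK-LSD1, where the same 9 genes were called in the same directions. For all 9 the GSK-LSD1 libraries did not overlap the DMSO libraries, as was so for 46.2% of genes tested. They were likewise apart from DMSO in both combinations, where 53% and 51.8% of genes tested were. The median log2 fold change of the 9 with GSK-LSD1 was 0.63, beside 0.03 over all genes tested. The 3 comparisons share their DMSO libraries and are not independent. Of the GSK-LSD1 calls, those of TLR7, TLR8 and TICAM1 were lost under some of the alternative settings tried.

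TLR2, the shared partner of the lipopeptide receptors, had the highest level per kilobase of transcript among the members with such a value, 72.2 ± 5.41 CPM per kb with DMSO. Its level was 187, 188 and 167 CPM in the DMSO libraries and 95.2, 96.2 and 103.7 CPM with GSK-LSD1. The groups were far apart, and TLR2 fell by 0.88 ± 0.06 (SE) on the log2 scale, to 0.545 of the DMSO level (adjusted p = 2.95e-10). With PRT220 it was higher in every library than with DMSO, at 209.8, 224 and 226 CPM, a log2 fold change of 0.28 ± 0.06 (adjusted p = 0.0011). In the PRT220 combination it stood at 111, 107 and 107 CPM, below DMSO by 0.74 on the log2 scale (adjusted p = 2.5e-09), and in the MS023 combination at 94.7, 96.9 and 104.6 CPM. The level with MS023 alone was 184 ± 4.57 CPM, with a log2 fold change of 0.03 that was not called. The order of group means was PRT220, MC4491, MC4455, MS023, DMSO, PRT220 with GSK-LSD1, MS023 with GSK-LSD1 and GSK-LSD1. MC4491, MC4455, MS023 and DMSO each overlapped their neighbour in that order, as did MS023 with GSK-LSD1 and GSK-LSD1 alone. Among TLR2 transcripts, TLR2-203 took 43.1 ± 2.15% of the gene's counts with DMSO and 41.5 ± 2.13% with GSK-LSD1, and TLR2-202 took 31.1 ± 0.810% and 28.6 ± 2.07%.

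TLR1, one of TLR2's partners, moved the other way with GSK-LSD1. It measured 11.8, 13.98 and 13.3 CPM with DMSO and 30.2, 29.6 and 29.5 CPM with GSK-LSD1, all above every DMSO library. This was a rise of 1.19 ± 0.07 on the log2 scale, 2.28-fold (adjusted p = 1.87e-11). PRT220 libraries lay between these groups, at 21.1, 24.2 and 25.0 CPM, with a log2 fold change of 0.84 ± 0.07 (adjusted p = 1.48e-08). The PRT220 combination was the highest of all groups at 33.0, 35.1 and 35.5 CPM. MC4455 (18.8, 20.6 and 18.9 CPM) and MC4491 (21.3, 20.6 and 19.6 CPM) were also above DMSO, by 0.57 and 0.65 on the log2 scale, while MS023 alone was not (12.4 ± 0.481 CPM). TLR1 was thus called higher in 6 of 7 treatments, more than any other of the 10 genes except MYD88, also called in 6.

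TLR6, the other TLR2 partner, stood at 10.6, 11.9 and 11.3 CPM with DMSO and at 17.2, 17.3 and 17.9 CPM with GSK-LSD1. The groups did not overlap, and the rise was 0.63 ± 0.08 on the log2 scale (adjusted p = 1.49e-06). Its rise was 0.68 in each combination. Unlike TLR1 it did not pass the test with PRT220, where its log2 fold change was -0.01 (95% interval -0.17 to 0.16). MC4455 and MC4491 raised it by 0.45 and 0.43. The values of TLR1 and TLR6 come from a shared start and partly shared sequence, and how their common reads were divided was not stated.

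Per kilobase with DMSO, the order after TLR2 was TLR4 (5.68), TICAM1 (5.43), TLR1 (5.19), TLR6 (2.05), TLR7 (1.04), TICAM2 (0.390), LY96 (0.146) and TLR8 (0.0606 CPM per kb). TLR4, TICAM1 and TLR1 lie within each other's spread. With GSK-LSD1 TLR2 was at 39.5 CPM per kb, TLR1 at 12.5, TICAM1 at 6.51, TICAM2 at 5.93, LY96 at 3.62, TLR6 at 3.50, TLR4 at 3.32, TLR7 at 1.36 and TLR8 at 0.188. MYD88 has no such value here, since only 21.7% of its counts were on transcripts that could be paired with GENCODE 29.

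TLR4, the lipopolysaccharide receptor, was at 24.6, 21.8 and 22.7 CPM with DMSO. With GSK-LSD1 it was at 12.3, 13.8 and 15.3 CPM, below every DMSO library. It fell by 0.74 on the log2 scale (SE 0.08), to 0.599 of the DMSO level (adjusted p = 2.93e-07). The lowest levels were in MS023 with GSK-LSD1, at 11.7, 9.44 and 10.9 CPM, which is 0.463 of DMSO and was lower than GSK-LSD1 alone by 0.37 on the log2 scale (adjusted p = 0.00777). That call was lost with only the 16 libraries without low RRP9 (adjusted p = 0.0577) or only the groups compared (0.078). In the groups with PRT220 it was higher than in their counterparts: 26.2, 28.4 and 30.1 CPM with PRT220 (log2 fold change 0.29, adjusted p = 0.00835) and 16.1, 16.96 and 16.5 CPM in the combination, above GSK-LSD1 alone by 0.26 on the log2 scale (adjusted p = 0.0343). The call for PRT220 was lost without DMSO B (adjusted p = 0.0574) or without PRT220 C (0.0633). That of the PRT220 combination over GSK-LSD1 was lost without GSK-LSD1 A or B or any 1 of the combination's libraries (0.0557 to 0.16). MS023 alone gave 18.1, 18.5 and 17.9 CPM, a fall of 0.34 (adjusted p = 0.0247), and this call was lost without DMSO A or without any 1 of the MS023 libraries (0.0657 to 0.0989). TLR4-201, the most used transcript, held 44.9 ± 2.14% of the gene's counts with DMSO and 44.8 ± 1.202% with GSK-LSD1.

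LY96 (ENSG00000154589, chromosome 8, 73991352 to 74029087), which encodes the MD-2 subunit that TLR4 needs to bind lipopolysaccharide, was near the floor of detection in DMSO. It had 2, 6 and 5 counts there (0.0547, 0.0988 and 0.113 CPM) and 71, 89 and 87 counts with GSK-LSD1 (1.71, 2.04 and 2.24 CPM). In the combinations it stood at 2.19, 2.14 and 2.40 CPM (with PRT220) and at 2.64, 2.39 and 2.05 CPM (with MS023). The log2 fold changes against DMSO were 4.41 ± 0.39, 4.58 ± 0.39 and 4.65 ± 0.39, between 21.3-fold and 25.1-fold. PRT220 alone gave 1, 2 and 5 counts and MS023 3, 2 and 3, within the DMSO range or close to it. MC4455 gave 10, 7 and 8 counts (0.260, 0.182 and 0.239 CPM), each above the DMSO libraries in CPM. The log2 fold change for MC4455 was 1.29 ± 0.45 (adjusted p = 0.0277), and the call was lost without DMSO A or B or MC4455 A or C (adjusted p 0.0548 to 0.0945). With MC4491 there were 3, 1 and 7 counts.

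TLR7 and TLR8, the endosomal RNA receptors, changed less in absolute terms. TLR7 was at 5.17, 5.78 and 4.64 CPM with DMSO and at 6.78, 6.48 and 7.12 CPM with GSK-LSD1, a rise of 0.38 ± 0.12 on the log2 scale (adjusted p = 0.0146). This call was lost without DMSO C (adjusted p = 0.106), GSK-LSD1 A (0.0534) or GSK-LSD1 C (0.0558). Its highest group mean was MS023 with GSK-LSD1 (8.13, 6.82 and 9.39 CPM), followed by MC4455 (7.16, 6.92 and 8.00 CPM). The 5 groups from the highest down to GSK-LSD1 alone overlapped each other in turn. With PRT220 its log2 fold change was -0.23, which was not called (95% interval -0.47 to 0.02). TLR8 was the lowest receptor, with 4, 24 and 11 counts in DMSO and 29, 35 and 34 with GSK-LSD1 (0.109, 0.396 and 0.248 against 0.698, 0.802 and 0.874 CPM). It rose by 1.59 ± 0.41 (adjusted p = 0.00475) with GSK-LSD1 and by 1.98 ± 0.41 in the PRT220 combination (adjusted p = 0.000448). Every pair of neighbours in its order of group means overlapped. For TLR8 with PRT220, MC4455 or MC4491 the counts of 5 to 26 per library left wide intervals, for example -0.50 to 1.32 for MC4455, so differences of this size were not detectable at this depth.

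MYD88, the common adaptor, was at 36.7, 37.8 and 35.8 CPM with DMSO and rose in every GSK-LSD1 library, to 63.1, 66.0 and 65.0 CPM. The log2 fold change was 0.81 ± 0.05, 1.76-fold (adjusted p = 1.47e-10). PRT220 raised it to 46.9, 47.4 and 48.7 CPM (log2 fold change 0.37 ± 0.05, adjusted p = 2.27e-05). The PRT220 combination, at 64.6, 70.6 and 63.9 CPM, overlapped GSK-LSD1 alone, and the log2 difference between them was 0.04 (95% interval -0.07 to 0.15). MC4455 and MC4491 were 0.21 and 0.17 above DMSO on the log2 scale. The MC4491 call was lost without DMSO C (adjusted p = 0.0615) or without MC4491 A (0.0819).

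TICAM1, which encodes TRIF, changed least among the genes that rose. It measured 13.4, 14.6 and 15.6 CPM with DMSO and 16.97, 17.3 and 18.0 CPM with GSK-LSD1, a rise of 0.26 ± 0.08 on the log2 scale (adjusted p = 0.0136). This call was lost without DMSO A (adjusted p = 0.0771) or GSK-LSD1 C (0.0564). The PRT220 combination held 15.8, 19.8 and 16.1 CPM, and its call against DMSO (0.24, adjusted p = 0.0147) was lost without the highest of these libraries, B (0.151), or without DMSO A (0.0822). No call was made with PRT220, MS023, MC4455 or MC4491 alone, where the log2 fold changes lay between 0.01 and 0.19.

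TICAM2, which encodes the TRAM adaptor between TLR4 and TRIF, had 0.810, 1.31 and 0.930 CPM with DMSO and 15.9, 19.9 and 18.0 CPM with GSK-LSD1. All 9 libraries given GSK-LSD1 lay between 15.9 and 19.9 CPM, and all 15 others between 0.271 and 1.95 CPM. The log2 fold change was 4.11 ± 0.31 with GSK-LSD1, 17.3-fold (adjusted p = 1.48e-09), 4.08 ± 0.31 with PRT220 added and 4.05 ± 0.31 with MS023 added. Only 38 of the 16640 genes tested (0.228%) were called with a rise of at least this size. Its values are uncertain in 1 respect: 82.1% of its 31-base words also occur in TMED7-TICAM2, a readthrough gene that joins TICAM2 to its neighbour TMED7, and the 2 share 2666 exon bases. It also overlaps an antisense gene, AC010226.1, by 364 exon bases, and the libraries were unstranded. The same rows can be read as 1 sum, in which TICAM2 took 21.6% to 30.8% with DMSO and 74.7% to 85.8% with GSK-LSD1. The sum was 4.03 ± 0.429 CPM with DMSO, 22.4 ± 0.972 CPM with GSK-LSD1, 23.1 ± 2.03 CPM with PRT220 added and 21.9 ± 0.604 CPM with MS023 added. Its log2 fold change with GSK-LSD1 was 2.47 ± 0.10, 5.54-fold (adjusted p = 1.24e-13).

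With PRT220 and with MC4455 the sum and the single row differed in direction. With PRT220 TICAM2 alone had a log2 fold change of 0.03, but the sum fell to 2.43 ± 0.249 CPM, by 0.74 on the log2 scale (adjusted p = 2.26e-05). With MC4455 TICAM2 alone was called higher, by 0.83 ± 0.32 (adjusted p = 0.0488), in libraries of 1.86, 1.71 and 1.95 CPM. The sum was lower by 0.46 (adjusted p = 0.002), and the readthrough gene itself fell by 1.46 (adjusted p = 0.00276). That MC4455 call was also lost without DMSO A or C or any 1 of the MC4455 libraries (adjusted p 0.0794 to 0.144). With MS023 and MC4491 both were lower: TICAM2 alone by 0.54 and 0.46 on the log2 scale, neither called, and the sum by 0.44 (adjusted p = 0.0265) and 0.24 (adjusted p = 0.0884). TMED7, the upstream neighbour, rose by 0.18 on the log2 scale with GSK-LSD1 (adjusted p = 0.0119).

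**Figure D2:**
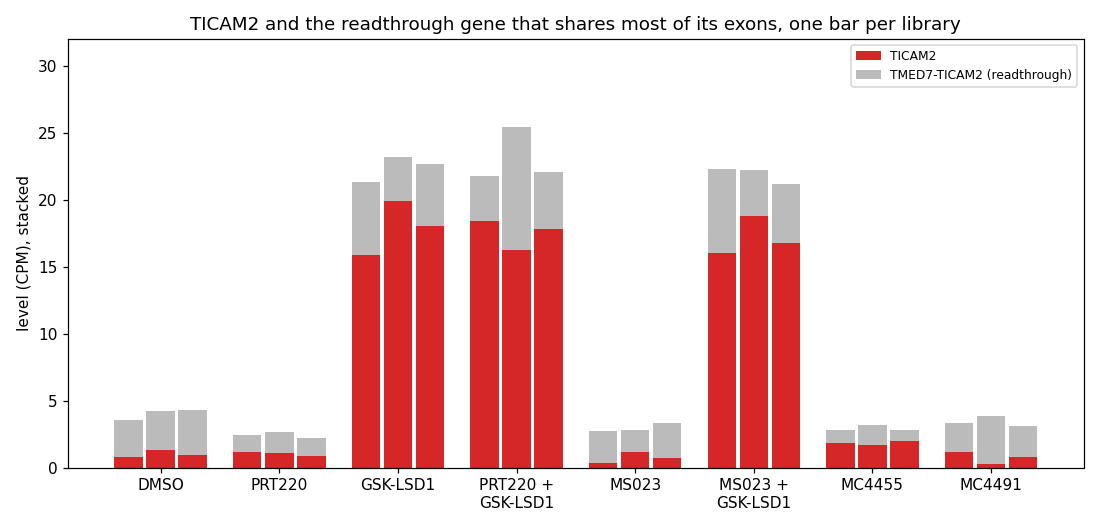
Stacked levels in CPM (vertical axis from 0) of TICAM2 and of the readthrough gene TMED7-TICAM2, 1 bar per library in the order A, B, C. The summed height is 21.2 to 25.4 CPM in the 9 libraries given GSK-LSD1 and 2.17 to 4.31 CPM in the other 15.

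PRT220 alone called 4 of the 10 genes, all higher (TLR1, TLR2, TLR4 and MYD88), where 24.9% of all genes tested were called and 13.8% were called higher. The receptors of the cell surface and MYD88 were on this list, except TLR6, and neither TLR7, TLR8, TICAM1, TICAM2 nor LY96 was. All 3 PRT220 libraries had low RRP9, and DMSO C was the only DMSO library of that kind. PRT220 and that split therefore cannot be told apart in this comparison. In DMSO C TLR1 was at 13.3, TLR2 at 167, TLR4 at 22.7 and MYD88 at 35.8 CPM, below each PRT220 library. With no other DMSO library of that kind, these values do not separate PRT220 from the split. The part of the split in these calls was not tested with them.

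Adding PRT220 to GSK-LSD1 moved 2 of the 10, where 15.3% of all genes were called: TLR1 rose by 0.21 ± 0.07 (adjusted p = 0.0316) and TLR4 by 0.26 ± 0.08 on the log2 scale over GSK-LSD1 alone. The TLR1 call was lost without GSK-LSD1 A, B or C or without the combination's library B or C (adjusted p 0.0517 to 0.109). Adding GSK-LSD1 to PRT220 called 8 of the 9 genes other than LY96 (6 higher, 2 lower; 38.2% of all genes), with TICAM1 not called (0.18, adjusted p = 0.0708). The interaction is the log2 change in the combination less the sum of those with each agent. It was called for TLR1 and MYD88, both negative, and for 0.541% of all genes. For TLR1 it was -0.63 ± 0.09 (95% interval -0.83 to -0.43, adjusted p = 0.00221), so the combination was higher than either agent alone but lower than their sum. For MYD88 it was -0.34 ± 0.07 (adjusted p = 0.0426), and this call was lost in 15 of 20 alternatives (adjusted p up to 0.163), among them leaving out any 1 of the DMSO, GSK-LSD1 or PRT220 libraries or the combination's A or C. For the other 8 genes the departure from the sum was not called, with intervals as wide as -1.39 to 0.95 for TLR8 and as narrow as -0.32 to 0.03 for TLR2. With TICAM2 and its readthrough summed, the interaction of TICAM2 turned from -0.07 to 0.78 (adjusted p = 0.00877).

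**Figure D3:**
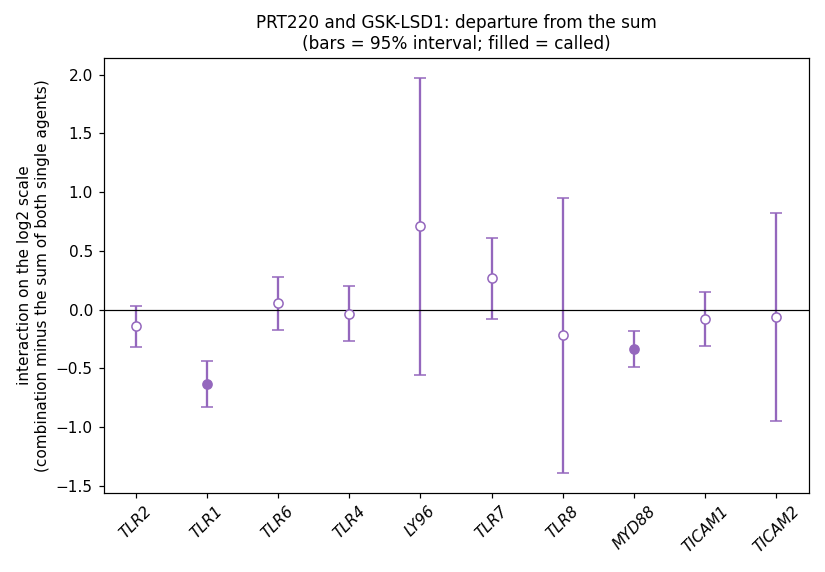
Interaction of PRT220 and GSK-LSD1 on the log2 scale (vertical axis; combination minus the sum of both single agents) for the 10 genes, with 95% intervals. TLR1 (-0.63) and MYD88 (-0.34) are called and lie below 0, and the intervals of the other genes include 0.

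MS023 alone called 1 of the 10 (TLR4, lower), where 2.25% of all genes were called and 1.36% were called lower. With GSK-LSD1 added, 8 of the 9 genes other than LY96 were called against MS023 alone, where 40% of all genes were, with TICAM1 the exception (0.12, adjusted p = 0.248). The combination differed from GSK-LSD1 alone for TLR4 only, where 10.9% of all genes were called. The interaction of MS023 with GSK-LSD1 was called by edgeR for 0 of the 10 genes and for 0% of all genes. At an unadjusted p below 0.05 it held 0 of the 10 and 1356 genes, and DESeq2 called 19 genes. TICAM2 and LY96 had wide intervals, -0.44 to 1.39 and -0.56 to 1.98.

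**Figure D4:**
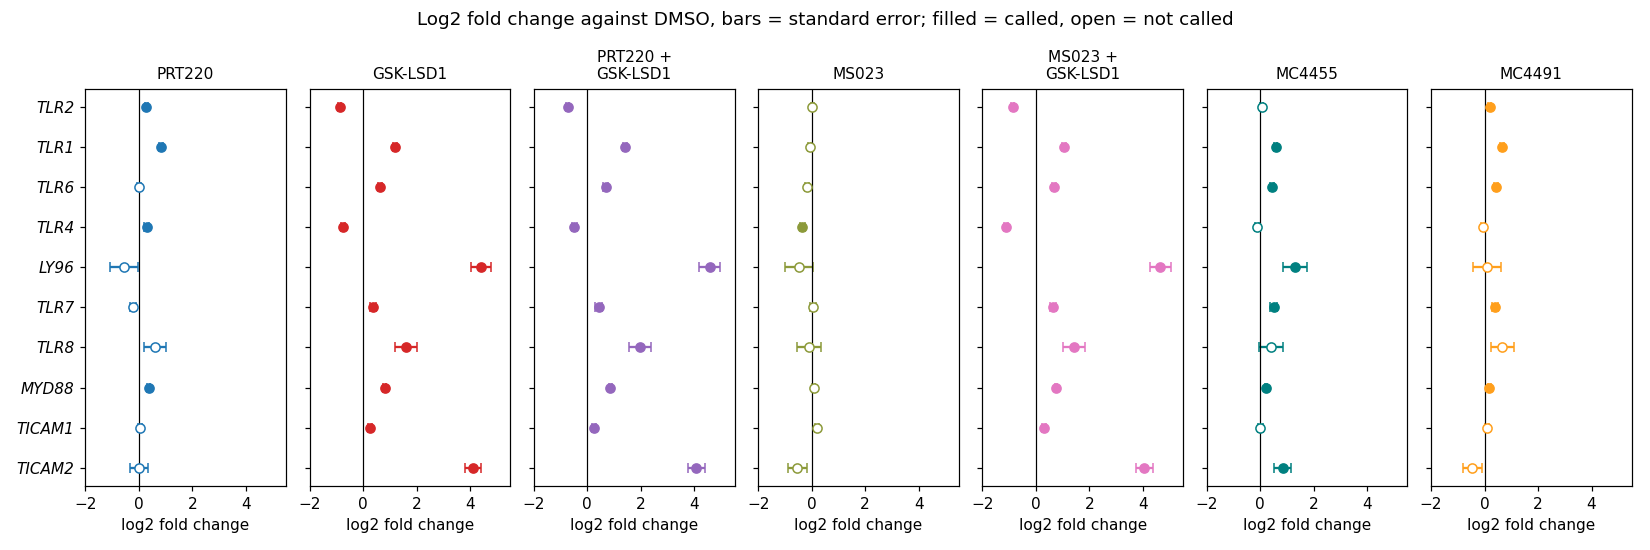
Log2 fold change against DMSO (horizontal axis) of the 10 genes in each of the 7 treatments, with standard errors as bars; filled points are called and open ones are not. TICAM2 and LY96 exceed 4 in each group given GSK-LSD1, TLR2 and TLR4 are negative there, and TLR2 and TLR4 are positive with PRT220.

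MC4455 called 6 of the 10 genes, all higher (TLR1, TLR6, TLR7, MYD88, TICAM2 and LY96), where 37.6% of all genes were called and 18.5% higher. The TICAM2 and LY96 calls are fragile, since both were lost under several alternatives. Summed with its readthrough, TICAM2 was instead lower with MC4455, by 0.46 (edgeR adjusted p = 0.002), and LY96 held only 7 to 10 counts per MC4455 library. MC4491 called 5, all higher (TLR1, TLR2, TLR6, TLR7 and MYD88), where 30.7% were called and 15.5% higher. TLR1, TLR6, TLR7 and MYD88 were called with both. TLR2 rose by 0.19 with MC4491, in libraries of 207, 206 and 205 CPM, and its call was lost without DMSO C (adjusted p = 0.144) or MC4491 A (0.0774), while that of TLR7 was lost without DMSO C (0.0905) or MC4491 C (0.0523). TLR4, which fell in the groups given GSK-LSD1, had log2 fold changes of -0.12 and -0.05 that were not called. Between the 2 compounds edgeR called 0 of the 10 genes and 0% of all genes. At an unadjusted p below 0.05 there were 3 of the 10 and 780 genes, and DESeq2 called 0 of the 10 and 18 genes. The 3 were TICAM2, higher with MC4455 by 1.29 (95% interval 0.57 to 2.01, adjusted p = 0.699), LY96, higher by 1.199 (0.24 to 2.16, adjusted p = 0.931), and TLR2, lower by 0.13 (adjusted p = 1). For TICAM2 summed with its readthrough the difference was -0.22 ± 0.11.

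The other members of the receptor family were read from a list of 4. TLR5, which binds bacterial flagellin, rose in 6 of 7 treatments against DMSO, from 1.01, 1.27 and 1.08 CPM to 2.57, 1.90 and 2.78 CPM with GSK-LSD1 (log2 fold change 1.101). TLR10, a neighbour of TLR1 on chromosome 4, and TLR3, which binds double-stranded RNA, rose with GSK-LSD1 by 0.53 and 0.46 and also with both combinations, MC4455 and MC4491. TLR9, which binds unmethylated CpG DNA, was called only with PRT220, where it fell by 1.17 on the log2 scale, to 0.790, 2.71 and 1.32 CPM from 4.06, 3.33 and 3.42 CPM. CD14, which hands lipopolysaccharide to the TLR4 complex, stood at 0.132 to 0.218 CPM with DMSO and 0.206 to 0.488 CPM with GSK-LSD1 and was not called in any treatment.

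Of the whole pathway list of 83 genes outside the 10, 74 were tested, and with GSK-LSD1 23 rose (31.1%, beside 17.6% of all genes tested) and 13 fell (17.6%, beside 15%), with a median log2 fold change of 0.06 beside 0.03 for all genes. LY86, which encodes the MD-1 partner of CD180 and is a relative of LY96, rose by 1.06, whereas the lipid scavenger receptor CD36 fell by 1.55. Of the other TIR adaptors, TIRAP, the sorting adaptor that brings MYD88 to TLR2 and TLR4, rose by 0.89 and PIK3AP1 fell by 0.14. The sublists that follow are small, and their shares are to be read against the same 17.6% higher and 15% lower. Among 20 kinases and ubiquitin ligases 5 rose (25%) and 4 fell (20%), with TAB2 (0.40) and IKBKB (0.35) up and PELI3 (-0.36) and IKBKE (-0.29) down. Among 7 genes of receptor trafficking and folding 3 rose (42.9%) and 1 fell (14.3%), with CNPY3 at 0.35 and HSP90B1 at -0.19. The transcription factors NFKB1 (0.53) and IRF1 (0.35) rose and NFKB2 (-0.26) fell, out of 10 (20% and 10%).

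Of 12 inhibitors of the pathway 3 rose (25%, beside 17.6% of all genes) and 4 fell (33.3%, beside 15%) with GSK-LSD1. SIGIRR rose by 0.50 and CYLD by 0.38, while IRAK3, a brake on MYD88 signalling, fell by 0.42. Of 17 genes that Toll-like receptor signals are known to induce, 13 were tested, 4 rose (30.8%) and 0 fell with GSK-LSD1: CCL2 (2.90), NFKBIZ (1.41), ICAM1 (0.99) and IL10 (0.70). IL6 and IFNB1 were below the filter, and IL1B (0.09) and CXCL8 (-0.78) were not called. With PRT220 the same list had 0 higher and 3 lower of 13 (CXCL10, CCL5 and IL1RN). Of all genes tested with PRT220, 24.9% were called in either direction and 13.8% higher. The 3 called of 13 are near the share called in either direction, and that all 3 were lower was not tested. The whole pathway list with PRT220 had 13 higher and 14 lower of 74, 36.5% called in all beside the same 24.9%. In the PRT220 combination 26 of the 74 rose and 17 fell (58.1% beside 46.5%), and with MS023 added to GSK-LSD1 24 and 17 did (55.4% beside 48.4%). With MC4455 17 rose and 12 fell (39.2% beside 37.6%), with MC4491 16 and 12 (37.8% beside 30.7%), and with MS023 alone 1 and 4 (6.76% beside 2.25%). The share for MC4455 was near that of all genes.

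Genes with the most similar set of 7 log2 fold changes against DMSO were sought among 12933 candidates, by the root mean square (RMS) difference in log2 units. The nearest to LY96 was TICAM2 (0.468). Rises in the groups given GSK-LSD1 were required for LY96 to pass the filter, so this nearness is only a description. The nearest to TICAM2 were WFS1 (0.259), KCTD12 (0.336) and KCNK13 (0.468). TLR1 lay nearest to SAMHD1 (0.117), IFI16 (0.129) and SMPD3 (0.138), TLR2 to GRAMD1B (0.0554), FGFR3 (0.0792) and RAB27A (0.0928), and TLR4 to EPHA1 (0.0649), FAR2 (0.0971) and MLC1 (0.126). TLR6 was nearest to ATP10A (0.0603) and CD44 (0.0819), MYD88 to SUN1 (0.0503) and CLOCK (0.0721), and TICAM1 to PRR12 (0.0372). Small distances are easily reached for genes that change little, and the 7 differences share the DMSO libraries.

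Markers of monocytes and macrophages moved with the same groups. Of 15 such genes 14 were tested, and with GSK-LSD1 10 rose (71.4%, beside 17.6% of all genes) and 1 fell (FCGR1A), with a median log2 fold change of 1.62. The 10 and the median include CD163, which, like LY96, passed the filter through the groups given GSK-LSD1. Its rise is therefore a description, and the share and median with it are somewhat too high. Their summed level was 1212 to 1231 CPM with DMSO, 3425 to 3596 CPM with GSK-LSD1, 2887 to 3124 CPM with PRT220 added and 2844 to 3206 CPM with MS023 added. With PRT220 alone it was 1411 to 1505 CPM, with MS023 1189 to 1280 CPM, with MC4455 1374 to 1541 CPM and with MC4491 1336 to 1446 CPM. CD163 was at 0 with DMSO and at 1.18 CPM with GSK-LSD1, and FCGR3A stayed below 0.1 CPM in every group. Of 8 granulocyte markers 6 were tested and 5 fell with GSK-LSD1 (83.3%, beside 15% of all genes), and the sum went from 386 to 433 CPM down to 186 to 200 CPM. The summed T and NK cell list was at 21.6 to 26.2 CPM with DMSO and 23.8 to 27.2 CPM with GSK-LSD1, nearly all of it NKG7 and NCAM1, with CD2 and CD3E, 2 of its 6 genes, at 0 in both. Within that list GNLY, a small part of the sum, was called higher (3.72) and NCAM1 lower (-0.77), and NKG7 was not called. Whether GNLY, like CD163, passed the filter only through the groups given GSK-LSD1 was not checked, so its rise is a description as well. The B cell list summed to 2.29 to 3.49 and 2.00 to 2.65 CPM, with MS4A1, 1 of its 4, at 0. The erythroid and megakaryocyte list summed to 19.1 to 23.0 and 23.0 to 25.3 CPM, nearly all of it ITGA2B, with HBG1 and PF4, 2 of its 6, at 0. The epithelial and fibroblast list went from 14.4 to 16.6 CPM to 19.4 to 22.4 CPM, mostly KRT8 and KRT18, and EPCAM was at 0 with GSK-LSD1. KRT8 (0.81), KRT18 (0.26) and DCN (2.88) were called higher in that list, and COL1A1 was not called. The part of these shifts in the values of the 10 genes was not tested. In bulk RNA a change in the share of cells of one kind and a change in RNA per cell cannot be told apart.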

How the data were processed

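Poly(A)-selected, unstranded RNA sequencing of MV4-11 with reads of 101 bases was described in the labels' protocols. The authors deposited a gene table and a transcript table of estimated counts (expected counts), 24 libraries each, not scaled between libraries; no source states the unit, which was taken from the many values that are not whole. Per the submitters' processing notes, Salmon 1.2.1, STAR 2.7.3a, R 4.0.0 and DESeq2 1.28.1 were used on GRCh38, with no role stated; the annotation release is not given in the sources used here.

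The deposited counts were rounded and fitted in R 4.3.3 with edgeR 4.0.16 (quasi-likelihood test, TMM scaling, filterByExpr, 1 coefficient per group, the 24 libraries fitted together), for 14 comparisons. The procedure was tested on simulated data. The SE of a log2 fold change is its absolute value over the root of the F statistic. Alternatives were DESeq2 1.42.0, its size factors, other filters, a replicate block, a term for the 8 libraries with RRP9 under 5 CPM, only the 16 others, only the groups compared, TICAM2 summed with its readthrough, and leaving out each library. Same-lettered libraries of different groups did not deviate together: 5 of 36 pairs correlated over 0.1 (range -0.194 to 0.154), so letters were not used to pair samples. Of 24 pairs of libraries within groups, 0 were identical.

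Transcripts, exons and lengths came from GENCODE 29. All 10 genes are named; from each pathway list up to 4 called genes with the largest change were eligible, or up to 2 with the highest level where none was called, and further ones were chosen after their values were seen (CD14, IL1B, CXCL8, IL6, IFNB1, PIK3AP1, TLR9, FCGR1A, CD163, FCGR3A and the marker genes of other cell types). The nearest genes were up to 3 per gene. The members, lists and motifs were chosen with earlier results of these data known.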

Additional observations from a re-analysis of the deposited data

Results flagged for a closer look

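The effect of GSK-LSD1 on TLR1 differed between cells with and without PRT220 by a test of the difference itself: the interaction was -0.63 on the log2 scale (SE 0.09, edgeR adjusted p = 0.00221, n = 3 per group). GSK-LSD1 raised TLR1 by 1.19 over DMSO and by 0.56 over PRT220. The TLR1 call held under every alternative that was run, with adjusted p from 1.95e-06 to 0.0288. For MYD88 the same difference was -0.34 (SE 0.07, adjusted p = 0.0426), from a rise of 0.81 over DMSO to one of 0.48 over PRT220. Unlike that of TLR1, the MYD88 call was lost in 15 of the alternatives run (edgeR adjusted p up to 0.163). All 3 PRT220 libraries had low RRP9, and the part of that split was not tested beyond a term for it in the fit, under which the MYD88 value was -0.34 (adjusted p = 0.0515).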

How the results depend on the processing

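Of 140 values (10 genes in 14 comparisons), 117 kept their direction and their side of the threshold under every alternative run. Over 2171 alternative values, 2087 did so, 73 lost a call, 8 gained one and 3 reversed. The reversals came from summing TICAM2 with TMED7-TICAM2, which by construction adds the readthrough counts: -0.74 with PRT220, -0.46 with MC4455 and 0.78 for the PRT220 and GSK-LSD1 interaction. The number of the 10 genes called moved as follows, and the cause was not tested. For MS023 against DMSO (1 called) it was 0 with only the 16 libraries without low RRP9, 2 with TICAM2 summed, 0 with only the groups compared, and 0 to 1 leaving out 1 library. For MC4491 against DMSO (5 called) it was 3 with the 16 libraries, 2 with only the groups compared and 2 to 5 leaving out 1 library. For PRT220 with GSK-LSD1 against GSK-LSD1 (2 called) it was 0 with the 16 libraries and 0 to 2 leaving out 1. For the PRT220 and GSK-LSD1 interaction (2 called) it was 1 with DESeq2 size factors, 1 with no filter, 1 with the term for low RRP9, 1 with the replicate block and 1 to 2 leaving out 1 library. For MS023 with GSK-LSD1 against GSK-LSD1 (1 called) it was 0 with only the groups compared and 1 to 2 leaving out 1; with the 16 libraries it was 1, but TLR7 (0.37, adjusted p = 0.0299) in place of TLR4 (-0.29, adjusted p = 0.0577). The replicate block also ended the call of TICAM2 with MC4455 (adjusted p = 0.0606) and of MYD88 in the interaction (0.0781), and changed no other call of the 10 genes. With only the 16 libraries, TLR8 with GSK-LSD1 had a log2 fold change of 1.56 (adjusted p = 0.0503), and PRT220 comparisons were not possible, since no PRT220 library remained. Depth limits LY96 and TLR8, whose DMSO libraries held 2 to 6 and 4 to 24 counts.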
